A study of Mus musculus with 145 samples.

Results

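The 39 DNA replication genes described here encode the proteins that mark origins, open and copy DNA, and supply its building blocks. They were chosen by name from the steps of replication, out of 19752 genes with a probe set annotated to a single symbol on the array, and all 39 were measured. Sorted mouse cell populations in 65 groups had been hybridised to 145 Affymetrix arrays, with 12 groups of 1 array, 28 of 2, 23 of 3 and 2 of 4. Each gene is represented by the probe set with the highest mean, and its value is an RMA intensity, used on the log2 scale for changes. Because probes differ in brightness, no gene's intensity is set against another's.

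Before each division a cell loads the MCM helicase at origins with ORC, CDC6 and CDT1, a step called licensing. At the start of S phase CDC45 and the GINS complex turn the loaded ring into a working helicase, and polymerase alpha with primase begins the strands that polymerases delta and epsilon extend on the PCNA clamp. Resting lymphocytes express little of this machinery, and genes bound by E2F factors, among them many replication genes, are switched on when such cells enter the cycle.

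By role, 10 genes belong to licensing (Orc1, Orc6, Cdc6, Cdt1, Mcm2 to Mcm7) and 6 to helicase activation (Mcm10, Cdc45, Gins1 to Gins4). The clamp and its loader account for 4 (Pcna, Rfc3, Rfc4, Rfc5), and polymerases with primase for 8 (Pola1, Pola2, Prim1, Prim2, Pold1, Pold2, Pole, Pole2). A further 3 act on single strands and Okazaki fragments (Rpa2, Fen1, Lig1), 4 in nucleotide supply (Rrm1, Rrm2, Tyms, Tk1) and 3 on chromatin behind the fork (Uhrf1, Chaf1a, Chaf1b). E2f1, a transcription factor that acts on many of the others, completes the set. Pcna has 2 probe sets that ran nearly alike (r = 0.9998 over the arrays), and Tk1 has 2 with r = 0.941.

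Promoter windows of 300 bases, 250 before to 50 after the annotated start, were available from RefSeq (build GRCm38.p6) for 33 of the 39 genes. The letters TTTCCCGC or TTTGGCGC, 2 common forms of the E2F site, were searched on both strands. The 33 genes have 39 windows, and a gene was counted if any of its windows held the letters. This was so for 11 of the 33 genes (33.3%), against 1.8% of 27025 genes. The windows printed are those of Mcm3 and Mcm6, which hold the letters at 2 places, of Cdt1 and Pole2, which hold them once and moved within the first hours of T cell stimulation, and of Rrm2, the gene with the largest rise, which holds none. Capitals mark the E2F letters on either strand, and each window runs 5′ to 3′ on the strand of its gene.
Mcm3: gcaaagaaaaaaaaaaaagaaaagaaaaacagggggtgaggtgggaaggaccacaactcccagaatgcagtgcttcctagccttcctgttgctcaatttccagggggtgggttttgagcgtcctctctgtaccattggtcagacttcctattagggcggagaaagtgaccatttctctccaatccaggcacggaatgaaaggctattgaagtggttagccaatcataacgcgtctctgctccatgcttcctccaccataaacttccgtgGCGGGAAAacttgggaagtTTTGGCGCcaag
Mcm6: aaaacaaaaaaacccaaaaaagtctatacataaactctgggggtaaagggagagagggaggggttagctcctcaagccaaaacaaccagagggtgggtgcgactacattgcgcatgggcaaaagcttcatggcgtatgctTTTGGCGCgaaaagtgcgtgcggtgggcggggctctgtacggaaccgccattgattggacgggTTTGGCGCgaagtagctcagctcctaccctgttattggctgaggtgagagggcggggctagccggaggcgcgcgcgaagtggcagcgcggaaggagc
Cdt1: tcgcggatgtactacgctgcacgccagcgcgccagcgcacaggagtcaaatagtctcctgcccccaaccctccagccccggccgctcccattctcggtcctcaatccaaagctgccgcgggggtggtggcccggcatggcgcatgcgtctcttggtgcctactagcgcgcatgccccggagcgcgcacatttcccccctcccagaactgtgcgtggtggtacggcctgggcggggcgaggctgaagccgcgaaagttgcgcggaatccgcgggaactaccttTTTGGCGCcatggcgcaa
Pole2: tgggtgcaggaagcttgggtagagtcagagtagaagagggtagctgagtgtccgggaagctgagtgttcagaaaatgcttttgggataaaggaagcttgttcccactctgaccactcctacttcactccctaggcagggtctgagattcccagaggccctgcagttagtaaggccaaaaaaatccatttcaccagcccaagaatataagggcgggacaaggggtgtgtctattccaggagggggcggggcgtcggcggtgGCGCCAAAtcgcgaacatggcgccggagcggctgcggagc
Rrm2: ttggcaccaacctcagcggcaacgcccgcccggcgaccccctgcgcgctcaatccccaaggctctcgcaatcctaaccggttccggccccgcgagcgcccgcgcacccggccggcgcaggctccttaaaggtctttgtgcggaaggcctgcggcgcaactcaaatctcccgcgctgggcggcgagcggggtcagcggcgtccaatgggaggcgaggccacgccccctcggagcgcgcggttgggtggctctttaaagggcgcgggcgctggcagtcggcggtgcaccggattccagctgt
Mcm3 lies at chr1:20820263-20820562 (minus strand), Mcm6 at chr1:128359656-128359955 (minus), Cdt1 at chr8:122567765-122568064 (plus), Pole2 at chr12:69228141-69228440 (minus) and Rrm2 at chr12:24708004-24708303 (plus). Of 40 other replication genes with a window, 13 (32.5%) held the E2F letters, and of 11 mitosis genes 0 did. The TTTGAA letters of the CHR element showed the opposite split. They occurred for 5 of 33 (15.2%) replication genes and for 9 of 11 (81.8%) mitosis genes, against 20.2% of all genes. CCAAT occurred for 20 of 33 (60.6%) replication genes and for 11 of 11 mitosis genes, against 41.1% of all genes. GGGCGG, which can share letters with an E2F match, occurred for 25 of 33 (75.8%) replication genes, against 38.2% of all genes. A match describes these letters in this window, not a site in use.

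The groups used were as follows. Naive CD4 and CD8 T cells (CD62Lhi CD44lo CD25-) came from lymph nodes of C57BL/6 males aged 6 weeks and were held with beads carrying anti-CD3 and anti-CD28 for 1, 5, 24, 48 or 96 h. Their controls carry the same treatment text and no culture time, so effects of the beads and of culture cannot be told apart. There were 2 arrays per group and 1 at 96 h. CD4 T cells of the spleen came from C57BL/6J males of 6 weeks, as effector cells on day 8 or memory cells on day 30 after LCMV, a mouse virus, or as naive cells, with 2 arrays each. OT-1 CD8 effector cells, which recognise an ovalbumin peptide, were labelled Tbet- (CD45.1+) or Tbet+ (CD45.2+), 3 arrays each. They were taken from spleens on day 6 after ovalbumin-expressing Listeria in mice aged 45 days, and KLRG1+ CD127- (2 arrays) and KLRG1- CD127+ (3 arrays) CD8 cells on day 8.

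Thymocytes were CD69+ and CD69- double positive (DP) cells at 6 weeks, and DP CD69- cells, CD24hi Vg2+, CD24hi Vg4+ and CD24lo Vg4+ gamma delta T cells titled e17, with 3 arrays each and 2 for CD24lo. The e17 samples carry an age of 5 weeks in another label, which conflicts with the title. Thymic epithelium comprised medullary (MEC) and cortical (CEC) cells at 5 and 8 weeks and MHCIIhi medullary cells sorted as GFP+, GFP- or GFP+ KO (C57BL/6 of both sexes, 5 weeks), where the labels do not say what is knocked out. Stroma was FRC, DN and LEC of subcutaneous nodes with or without complete Freund's adjuvant (CFA) on day 6, from C57BL/6J males of 6 weeks. Macrophages were F4/80hi peritoneal cells labelled Gata6ko or ctrl (mixed background, males, age given as 9 with no unit), F4/80hi or intermediate cells of liver, and alveolar or CD11c- CD11b+ cells of lung, the liver and lung cells from C57BL/6 mice of 6 weeks. Visceral fat of males gave CD11b+ dendritic cells at 48, 50 and 52 days with no strain stated, and, from C57BL/6J, CD11b- dendritic cells at 45 and 50 days and macrophages at 45, 50 and 52 days. Other groups enter only by their levels, among them monocytes and mast cells from mice of 6 weeks. Blood neutrophils and blood eosinophils, also used only so, came from mice whose ages differ between arrays. Nothing says that arrays of a group came from separate animals, so a p-value here reflects the spread among the samples, which may be technical.

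Array medians lay between 112 and 147, and arrays of a group correlated with r from 0.922 to 0.997 across probe sets. A probe set was tested where its highest group mean in a fit reached the median of all values in that fit, which left 12837 to 15068 probe sets. A gene was called at a limma p under 0.05 after Benjamini-Hochberg adjustment over all probe sets tested, and changes are log2 ± SE. In bulk RNA a smaller share of expressing cells and less RNA per cell cannot be told apart. T cell markers summed to 8811 to 11920 in CD4 cells at 24 h, against 12940 to 16000 in their controls, and myeloid markers to 221 to 239 against 275 to 302.

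All 39 genes were higher than control at 24 h in CD4 and in CD8 T cells, and all 39 still were at 48 h. In CD4 cells at 24 h the changes ran from 1.21 to 5.15 log2 units with a median of 2.84, against a median of 0.04 over all 14411 probe sets, of which 53.4% were called, 33.1% higher. In CD8 cells they ran from 0.95 to 4.70 with a median of 2.49 (43.3% called, 25.3% higher). At 48 h the medians were 2.30 in CD4 cells (34.5% called, 24.5% higher) and 1.96 in CD8 cells (25% called, 15% higher). The largest changes at 48 h were those of Rrm2 (5.24), Pole (4.27), Uhrf1 (3.90) and Rrm1 (3.73) in CD4 cells, and of Rrm2 (4.98), Tyms (3.40), Uhrf1 (3.27) and Rrm1 (3.07) in CD8 cells. The smallest were Pold2 (1.21) and Pcna (1.04) in CD4 cells, and Pole2 (0.79) and Pold2 (0.65) in CD8 cells.

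Rrm2, the small subunit of ribonucleotide reductase, changed most in both lineages. Its CD4 intensities were 75 and 63 in controls, 84 and 110 at 1 h, 97 and 102 at 5 h, 2476 and 2388 at 24 h, 2606 and 2565 at 48 h and 154 at 96 h. In CD8 cells they were 90 and 84 in controls, 2261 and 2258 at 24 h, 2891 and 2612 at 48 h and 111 at 96 h. The arrays of 24 and 48 h lay far above every other array of the course. The change at 24 h was 5.15 ± 0.13 in CD4 cells (limma adjusted p 5.8e-13) and 4.70 ± 0.13 in CD8 cells (1.5e-12). Rrm1, the large subunit, changed by 3.74 ± 0.18 and 3.21 ± 0.18, and Tyms, which makes thymidylate, by 3.32 ± 0.16 and 3.52 ± 0.16.

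Pole, the catalytic subunit of polymerase epsilon, had 1401 and 1634 in CD4 cells at 24 h, against 75 and 65 in controls, and 1430 and 1615 in CD8 cells, against 137 and 141. The stimulated arrays of both lineages reached like levels over unlike controls. The changes were 4.43 ± 0.17 and 3.45 ± 0.17. Uhrf1, which brings DNA methyltransferase to newly copied DNA, had 1831 and 2213 in CD4 cells at 24 h, against 96 and 100, a change of 4.36 ± 0.18. In CD8 cells it changed by 3.72 ± 0.18 and Orc1, the largest ORC subunit, by 3.55 ± 0.18.

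The smallest changes at 24 h were those of Pcna and Gins2 in CD4 cells and of Cdt1 and Gins4 in CD8 cells. Pcna, the sliding clamp, had 6110 and 6110 in CD4 cells at 24 h, against 2576 and 2697 in controls, a change of 1.21 ± 0.11. Gins2, a GINS subunit, changed by 1.45 ± 0.13 in the same cells. In CD8 cells Cdt1, the MCM loader, changed by 0.95 ± 0.15 and Gins4, another GINS subunit, by 1.27 ± 0.17. No stimulated array of these genes at 24 h overlapped a control array. Such separation held for 74.7% of probe sets in CD4 and 70.7% in CD8 cells. Pola1, the catalytic subunit of polymerase alpha, had unlike arrays in CD4 cells at 24 h, 1146 and 515, against 111 and 108 in controls.

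By role, the median change at 24 h in CD4 cells was highest for nucleotide supply (3.53) and licensing (3.08) and lowest for polymerases and primase (2.22), and in CD8 cells it was 3.36, 2.42 and 2.03 for the same roles. Genes with E2F letters in their window had a median of 3.04 (1.83 to 3.39, 11 genes) and those without 2.87 (1.21 to 5.15, 22 genes) in CD4 cells. In CD8 cells the medians were 2.51 (0.95 to 2.77) and 2.59 (1.42 to 4.70). The ranges overlap and the difference was not tested. E2f1 itself had 871 and 1038 in CD4 cells at 24 h, against 125 and 128 in controls.

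**Figure D1:**
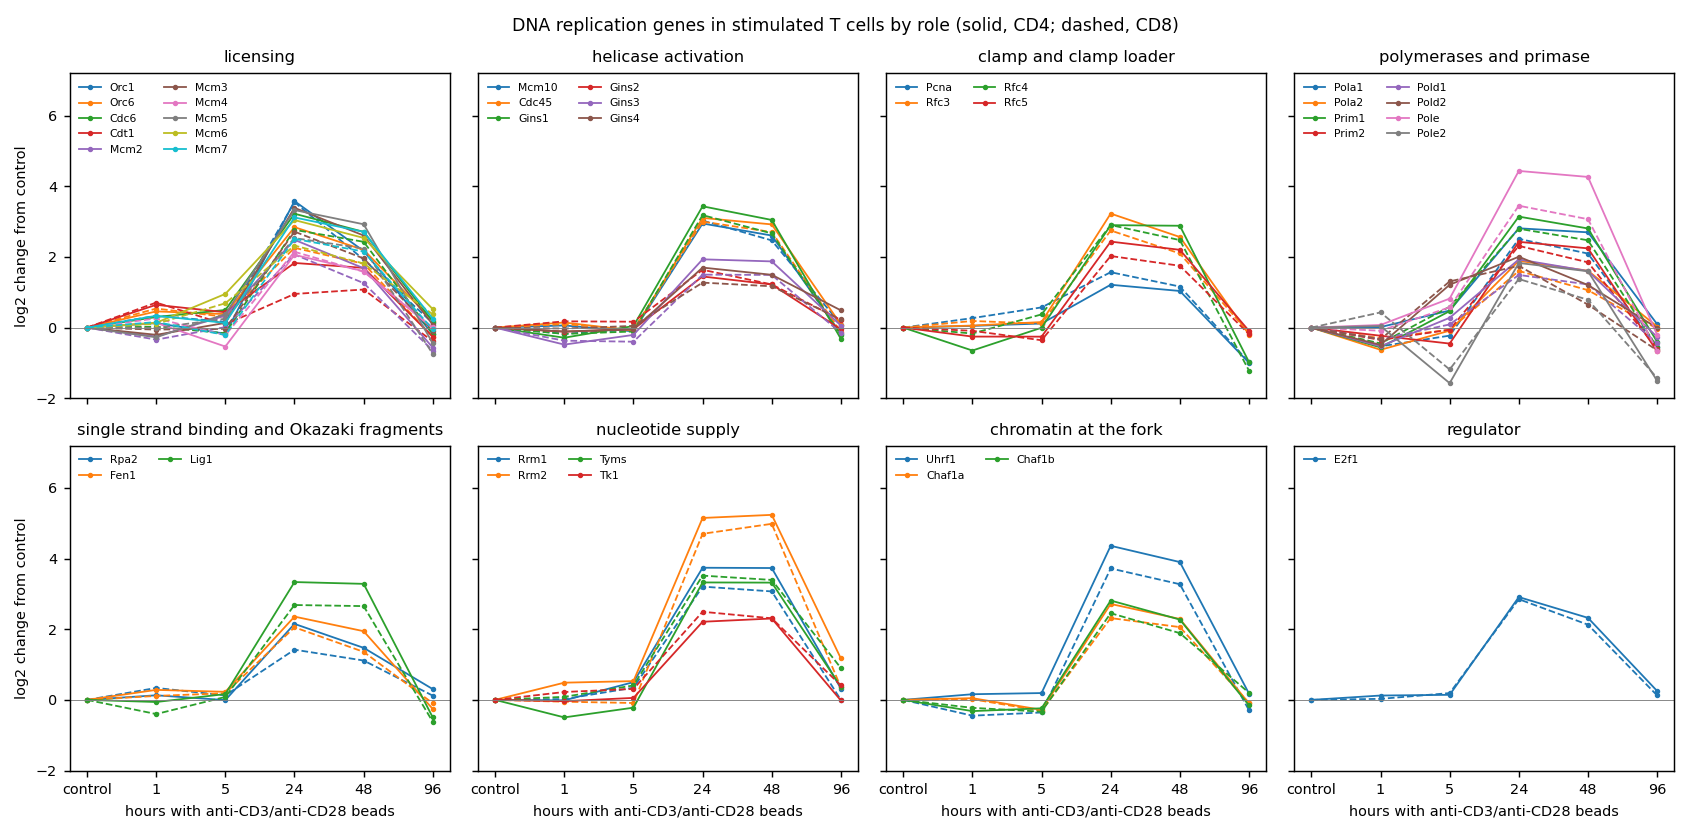
Mean log2 change from control (vertical axis) at control, 1, 5, 24, 48 and 96 h with beads (horizontal axis, evenly spaced) for each of the 39 genes, in a panel per role, with solid lines for CD4 and dashed lines for CD8 cells. Changes stay near 0 at 1 and 5 h for most genes, reach 0.95 to 5.15 at 24 h, and return to between -1.50 and 1.17 at 96 h.

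Of 46 other replication genes measured, from a list of partner subunits and regulators, 43 rose in CD4 and 41 in CD8 cells at 24 h, with median changes of 1.86 and 1.62 and percent called as above. All 12 mitosis genes measured rose in both lineages (medians 3.41 and 3.73). Of 12 genes that restrain the cycle, 3 rose and 8 fell in CD4 cells, and 2 rose and 8 fell in CD8 cells. Among those that fell were Btg2, an antiproliferative gene (-2.42 in CD4 and -2.20 in CD8 cells), Klf2, a quiescence factor of naive T cells (-2.09 and -2.16), and Cdkn1b, which encodes the inhibitor p27 (-1.51 and -1.27).

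The first hours were uneven. At 1 h, 3 genes were higher and 6 lower in CD4 cells, where 20.1% of probe sets were called, and 2 were higher and 1 lower in CD8 cells, where 14.5% were. Both shares lie near or under the background. Cdt1 had 558 and 487 in CD4 cells at 1 h, against 368 and 302 in controls (0.64 ± 0.15, limma adjusted p 0.0074), and 823 and 849 in CD8 cells, against 508 and 514 (0.71 ± 0.15, 0.0052). Its arrays at 1 h lay above all controls of their lineage. Orc6, the smallest ORC subunit, rose by 0.46 ± 0.15 and 0.54 ± 0.15. Rrm2 rose by 0.49 ± 0.13 in CD4 cells, and Rfc4, a clamp loader subunit, fell by 0.65 and Pola2 fell by 0.63 there. Prim1 fell by 0.56 and Gins3 fell by 0.48 in the same cells, while Lig1, the ligase of Okazaki fragments, fell by 0.40 in CD8 cells.

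The counts at 1 h rest on single arrays. In CD4 cells 2 genes were called without the second array of 1 h, 3 without the first control and 4 without the second. In CD8 cells 1 was called without any of the 4 arrays in turn.

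At 5 h, 7 genes were higher and 2 lower in CD4 cells (31.2% called) and 5 were higher and 2 lower in CD8 cells (28.9% called). Both shares of members called lie under the background. Arrays at 5 h did not overlap controls for 26 of the 39 genes in CD4 and 24 in CD8 cells. Over all probe sets this held for 60.7% and 59.1%. Pold2, the second subunit of polymerase delta, rose most. It had 672 and 498 in CD4 controls, 476 and 357 at 1 h, 1368 and 1313 at 5 h, 2241 and 2408 at 24 h, 1397 and 1273 at 48 h and 576 at 96 h. In CD8 cells it had 666 and 756 in controls, 1564 and 1974 at 5 h, 2420 and 2346 at 24 h and 1056 and 1175 at 48 h. The 5 h arrays of both lineages lay above all controls. The changes at 5 h were 1.21 ± 0.17 (limma adjusted p 4.2e-05) and 1.31 ± 0.17 (2.5e-05), which is 60.5% and 74.9% of its largest rise, against a median over the 39 genes of 4.31% and 3.8%.

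Mcm6, a helicase subunit, had 578 and 589 in CD4 cells at 5 h, against 272 and 333 in controls, and 718 and 704 in CD8 cells, against 431 and 451. Its arrays did not overlap and the changes were 0.95 ± 0.13 and 0.69 ± 0.13. Pole was also higher at this time, with 0.82 ± 0.17 in CD4 cells and 0.57 ± 0.17 in CD8 cells. Cdc6, an MCM loader, rose by 0.50 ± 0.17 in CD4 cells, where Rrm1 and Rrm2 were also called and Cdt1 rose by 0.44. Prim1, the catalytic subunit of primase, rose by 0.59 ± 0.17 in CD8 cells and Pcna by 0.57 ± 0.11.

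Pole2, the second subunit of polymerase epsilon, went the other way at 5 h. It had 303 and 399 in CD4 controls, 370 and 348 at 1 h, 107 and 128 at 5 h, 1190 and 1286 at 24 h, 954 and 1156 at 48 h and 123 at 96 h. In CD8 cells it had 419 and 562 in controls, 189 and 241 at 5 h, 1069 and 1481 at 24 h, 858 and 817 at 48 h and 181 at 96 h. The 5 h arrays lay below every control array, and the 24 h arrays above. It fell by 1.57 in CD4 cells (SE 0.21, limma adjusted p 2.3e-05) and by 1.18 in CD8 cells (SE 0.21, 3.8e-04) at 5 h. Mcm4, a helicase subunit, fell by 0.54 in CD4 cells and Gins3, a GINS subunit, fell by 0.40 in CD8 cells. Without the second control array 5 genes were called in CD4 cells at 5 h, and without the second 5 h array 4 in CD8 cells.

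**Figure D2:**
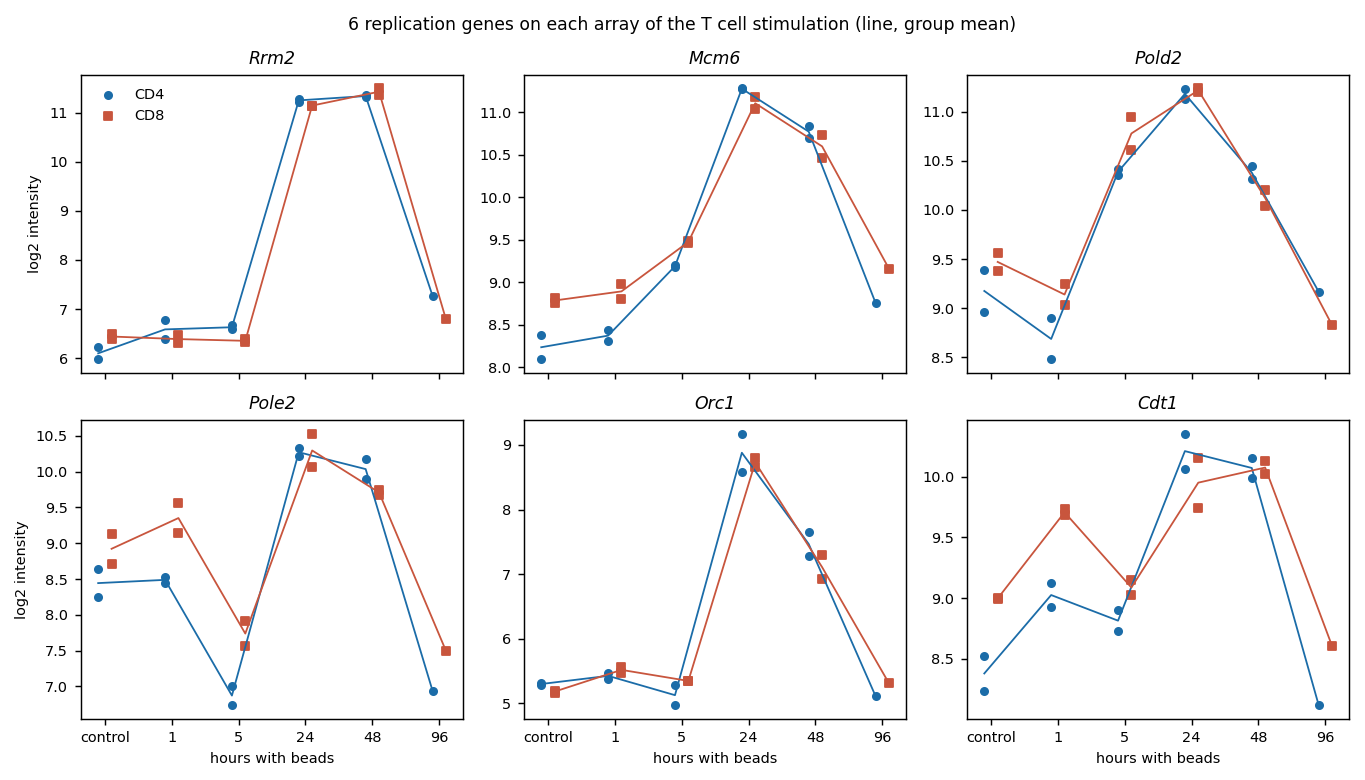
Log2 intensity (vertical axis) of Rrm2, Mcm6, Pold2, Pole2, Orc1 and Cdt1 on each array at control, 1, 5, 24, 48 and 96 h (horizontal axis, evenly spaced), with circles for CD4, squares for CD8 cells and lines through group means. Pold2 and Mcm6 are above control at 5 h, Pole2 is below it, and Rrm2 and Orc1 are above it from 24 h.

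The first time at which a gene was called higher was 24 h for 31 genes in CD4 cells and 32 in CD8 cells. It was 5 h for 5 genes in each (Cdc6, Mcm6, Pold2, Pole and Rrm1 in CD4, Mcm6, Pcna, Pold2, Pole and Prim1 in CD8), and 1 h for Cdt1 and Orc6 in both and Rrm2 in CD4 cells. From 5 to 24 h all 39 rose in CD4 cells (33.3% called, 22% higher) and 38 in CD8 cells (25.3% called, 16.1% higher), the other being Pold2 at 0.44. The largest changes over this interval were those of Rrm2 (4.62), Uhrf1 (4.17), Orc1 (3.75) and Pole (3.61) in CD4 cells, and of Rrm2 (4.79), Uhrf1 (4.08), Orc1 (3.39) and Gins1 (3.29) in CD8 cells. The smallest called were Pcna (1.10) and Pold2 (0.79) in CD4 cells, and Pcna (0.99) and Cdt1 (0.86) in CD8 cells. The highest of the measured times was 24 h for 37 genes in each lineage. It was 48 h for Rrm2 and Tk1, the cytosolic thymidine kinase, in CD4 cells and for Rrm2 and Cdt1 in CD8 cells. After quantile normalization of the arrays 33 and 35 genes had their highest level at 24 h.

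Between 24 and 48 h no member was called higher, 12 were lower in CD4 cells (33.3% called, 17.7% lower) and 18 in CD8 cells (32.7% called, 17.9% lower). Orc1 fell most. It had 155 and 202 in CD4 cells at 48 h, against 383 and 578 at 24 h, and 157 and 121 in CD8 cells, against 404 and 447. The arrays of the times did not overlap, as was so for 62.5% of probe sets in CD4 and 63.2% in CD8 cells. Orc1 fell by 1.41 (SE 0.18, limma adjusted p 2.2e-05) and by 1.62 (SE 0.18, 6.2e-06). Pold2 fell by 0.80 and 1.10, Mcm2, a helicase subunit, by 0.80 and 0.81, and Mcm3 by 0.78 and 0.76. The smallest called falls were those of Mcm6 (-0.51) and Mcm4 (-0.46) in CD4 cells, and of Pcna (-0.41) and Rpa2 (-0.31) in CD8 cells.

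The late change differed by role as a count. In licensing 7 of 10 genes fell in CD4 and 6 of 10 in CD8 cells, and E2f1 fell by 0.59 and 0.72. In nucleotide supply 0 of 4 were called by limma in either lineage, with medians of 0.04 and -0.13. Rrm2 changed by 0.09 ± 0.13 and 0.28 ± 0.13 there, neither called. In helicase activation 0 of 6 were called in CD4 and 3 of 6 in CD8 cells. Differences between roles were not tested. Without the first 48 h array 6 genes were called in CD4 cells, and without the second 10 in CD8 cells.

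Over the same interval mitosis genes went up, 11 of 12 in CD4 cells (median 1.15) and 8 of 12 in CD8 cells (median 0.96), with none called lower by limma in either. Ccnb2, a mitotic cyclin, changed by 3.04 in CD4 cells, Plk1, a mitotic kinase, by 1.95, and Cdc20, an activator of the anaphase ligase, by 1.72. Of the 46 other replication genes 8 rose and 13 fell in CD4 cells, and 4 rose and 17 fell in CD8 cells. Of the 12 genes that restrain the cycle 10 rose and 2 fell in CD4 cells (median 0.89), and 9 rose and 2 fell in CD8 cells (median 0.97).

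**Figure D3:**
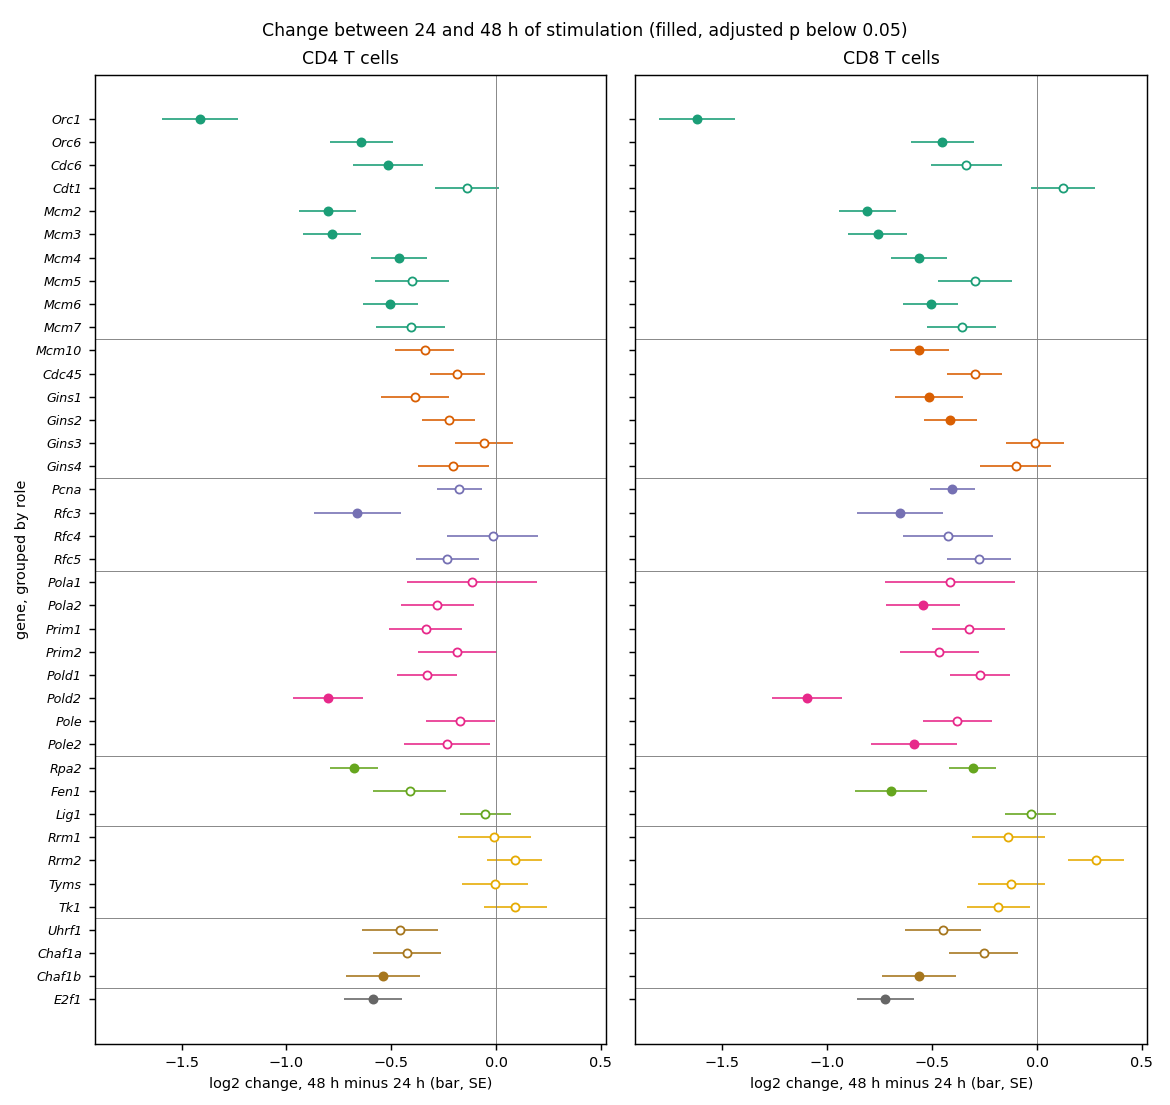
Log2 change from 24 to 48 h (horizontal axis, bars are SE) of each of the 39 genes, grouped by role, for CD4 cells (left) and CD8 cells (right), with filled points for genes called at an adjusted p under 0.05. Orc1 lies farthest left at -1.41 and -1.62, and the nucleotide supply genes lie between -0.19 and 0.28.

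At 96 h all 39 were lower than at 48 h in CD4 cells (17.4% called, 13.1% lower, median -2.43) and in CD8 cells (13.9% called, 11.3% lower, median -2.14). The deepest falls were those of Pole (-4.47), Rrm2 (-4.07), Rfc4 (-3.86) and Lig1 (-3.78) in CD4 cells, and of Rrm2 (-4.63), Pole (-3.72), Rfc4 (-3.70) and Uhrf1 (-3.57) in CD8 cells. Rpa2 (-1.17 and -0.995) and Gins4 (-1.01 and -0.94) fell least in both. Against control, 1 gene was higher and 3 lower in CD4 cells (5.99% called), and 1 was higher and 5 lower in CD8 cells (5.87% called). Pcna had 1322 in CD4 cells at 96 h, against 2576 and 2697 in controls, and 1097 in CD8 cells, against 2042 and 2291. The single 96 h array lay below both controls in each lineage, and Pcna fell by 1.00 (SE 0.13) and 0.98 (SE 0.13). Pole2 fell by 1.50 and 1.42 and Rfc4 by 0.98 and 1.22, while Mcm2 (-0.65) and Lig1 (-0.62) were lower in CD8 cells. Rrm2 was still higher in CD4 cells, by 1.17 ± 0.16, and Tyms in CD8 cells, by 0.90 ± 0.19. With 1 array at 96 h the spread is borrowed from the other groups, and 3 genes were called in CD8 cells without the first control.

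In resting controls 3 genes were higher in CD8 than in CD4 cells (3.09% called). They were Pole (137 and 141 in CD8, 75 and 65 in CD4 cells, 0.99 ± 0.17), Cdt1 (0.62 ± 0.15) and Mcm6 (0.55 ± 0.13), and 1 was called without either CD8 control. The response differed between lineages for 1 gene at 48 h (0.527% called). Pole rose less in CD8 cells, by -1.20 ± 0.23 relative to CD4 cells (limma adjusted p 0.028). Without any of 7 of the 8 arrays involved, all but the first CD4 control, this call was lost. By limma 0 members differed in response at 5 h (5 at an unadjusted p under 0.05) and 0 at 24 h (16 at an unadjusted p under 0.05), where 0.368% and 0.659% of probe sets were called. At 24 h 1 was called without the first CD4 array of 24 h.

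After LCMV infection 27 of 37 tested genes were higher in effector CD4 cells on day 8 than in naive cells, none was lower by limma, and 32.2% of probe sets were called, 18.7% higher. Orc1 and Gins1 were too dim to test. Rrm2 had 529 and 860 in effector cells, against 56 and 85 in naive cells (3.29 ± 0.25, limma adjusted p 1.7e-05). Pole had 357 and 379, against 66 and 81 (2.33 ± 0.15), and Pola1 had 469 and 578, against 105 and 144 (2.08 ± 0.18). Rrm1 was higher by 1.75 ± 0.18. No effector array overlapped a naive one for these genes, as was so for 62.7% of probe sets. The smallest called changes were those of Prim2, the other primase subunit (0.54), and Orc6 (0.50).

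Pold2 (-0.28 ± 0.13) and Pole2 (-0.43 ± 0.21) had negative changes that were not called, and Pcna was at 0.45 ± 0.16. Dendritic markers summed to 514 to 535 in effector cells, against 227 to 260 in naive cells, and myeloid markers to 536 to 550 against 276 to 278. Their part in the result was not tested. All 12 mitosis genes and 22 of 42 tested other replication genes were higher as well.

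On day 30 after LCMV, 26 of 37 genes were lower in memory than in effector cells (8.6% called, 6.15% lower), among them Rrm2 (163 and 172 in memory cells, -2.01 ± 0.25), Pole (-1.68 ± 0.15), Prim1 (-1.44 ± 0.25) and Uhrf1 (-1.42 ± 0.17), with Prim2 (-0.69) and Rfc5, a clamp loader subunit (-0.62), the least low. Without the first memory array 14 were called and without the second effector array 13. Against naive cells, which the effector comparison shares, 5 genes were higher and 1 lower in memory cells (14.5% called). Pola1 had 290 and 312 in memory cells, against 105 and 144 (1.29 ± 0.18), and Rrm2 was higher by 1.28 ± 0.25, Tyms by 0.78, Pole by 0.65 and Mcm6 by 0.61. Pole2 had 120 and 146 in memory cells, against 316 and 491 in naive cells, and fell by 1.57 (SE 0.21, limma adjusted p 0.0012). Without the second memory array 3 were called. Of 12 mitosis genes 7 were higher in memory than in naive cells and 0 lower by limma.

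Tbx21, which encodes T-bet, had 286, 283 and 308 in cells labelled Tbet-, against 3313, 2889 and 3326 in Tbet+ cells (-3.44 ± 0.11, limma adjusted p 4.6e-08). Of 37 replication genes tested 2 were lower in Tbet- cells and 0 higher, where 9.68% of probe sets were called, and 12 had an unadjusted p under 0.05. Rpa2, a subunit of the single-strand binding protein, had 278, 314 and 278 in Tbet- cells, against 509, 592 and 432 in Tbet+ cells (-0.81 ± 0.14). Rrm2 had 336, 363 and 350, against 512, 713 and 580 (-0.77 ± 0.13). Without the first Tbet+ array 5 were called. Of 12 mitosis genes 9 were lower. Dendritic markers summed to 1016 to 1105 in Tbet- cells, against 2505 to 3302 in Tbet+ cells, and their part in the result was not tested.

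Between KLRG1+ CD127- and KLRG1- CD127+ CD8 cells 0 of 30 tested genes were called by limma (0.382% called), and 2 had an unadjusted p under 0.05. Myeloid markers summed to 1132 to 1204 in KLRG1+ cells and to 516 to 5251 among KLRG1- arrays.

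In the thymus all 39 genes were lower in CD69+ than in CD69- DP cells (40.3% called, 21.1% lower, median -1.42, against 0.02 over all probe sets). CD69 marks DP cells that have received a receptor signal. Rrm2 had 298, 279 and 333 in CD69+ cells, against 3377, 3033 and 3340 in CD69- cells (-3.42 ± 0.11, limma adjusted p 5.1e-15). Pole had 104, 112 and 136, against 772, 683 and 600 (-2.55 ± 0.11). Pola1 had 195, 145 and 193, against 1085, 996 and 987 (-2.54 ± 0.13). The groups lay far apart for these 3 genes, and Prim1 fell by 2.50. The smallest falls were those of Rpa2 (0.72 lower) and Pola2, the second subunit of polymerase alpha (-0.59 ± 0.11). By role, nucleotide supply had the lowest median (-2.26) and single strand binding and Okazaki fragments the least low (-0.99). All 12 mitosis genes fell, as did 38 of 46 other replication genes, while 1 of those rose. Markers of immature thymocytes summed to 3374 to 3669 in CD69+ cells, against 14530 to 15850 in CD69- cells, and their part in the result was not tested.

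DP CD69- cells titled e17 had 37 of 39 genes higher than DP CD69- cells of 6 weeks and 0 lower by limma (35.9% called, 24.2% higher, median 0.72, 38 at an unadjusted p under 0.05). Chaf1b, a subunit of chromatin assembly factor 1, had 1497, 1307 and 1488, against 753, 528 and 616 (1.19 ± 0.11, limma adjusted p 1.2e-07). Gins1 was higher by 0.99 ± 0.11, Mcm10, a helicase activator, by 0.98 ± 0.11 and Prim2 by 0.98 ± 0.09. Pola1 (0.18 ± 0.13) and Fen1, the flap nuclease (0.40 ± 0.17), were not called, and the smallest called changes were Rfc3 (0.39) and Pcna (0.33). Markers of immature thymocytes summed to 8505 to 9277 in e17 cells, against 14530 to 15850. Their part in the result was not tested.

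Gamma delta T cells titled e17 held levels near those of the DP cells of the same title. CD24hi Vg2+ cells had 13 of 39 genes lower and 0 higher by limma than e17 DP cells (49% called, 22% lower). CD24hi Vg4+ cells had 15 lower and 3 higher (50% called, with 3077 of 13825 probe sets lower and 3841 higher). Both shares lie below the background of either direction together. The shares of lower genes lie above those of lower probe sets, and the shares of higher genes below those of higher probe sets. Rrm2 had 2069, 2486 and 2496 in Vg2+ cells and 2139, 2489 and 2648 in Vg4+ cells, against 4110, 4959 and 4565 in the DP cells that both share (-0.95 ± 0.11 and -0.91 ± 0.11). Gins3 was lower by 0.67 in Vg2+ and 0.73 in Vg4+ cells, and Rfc4 by 0.60 and 0.72. Uhrf1 was at -0.68 and -0.69, and the smallest called falls were those of Rrm1 (-0.31) and Pcna (-0.28) in Vg2+ cells and of Orc6 (-0.23) in Vg4+ cells. The 3 higher genes in Vg4+ cells were Pold2 (0.29), Rpa2 (0.26) and Mcm3 (0.23). Without the first Vg4+ array or the second DP array 11 were called in Vg4+ cells.

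Vg2+ and Vg4+ CD24hi cells differed in 0 genes by limma (0.774% called, 0 at an unadjusted p under 0.05), with changes between -0.16 and 0.12. CD24lo Vg4+ cells had 1 gene lower than CD24hi Vg4+ cells (18.8% called). This was Chaf1b, with 999 and 1114, against 1553, 1374 and 1379 (-0.44 ± 0.12). It was lost without the first array of either group, and 2 genes were called without the second or the last CD24hi array. Mast cell markers, a list that includes Kit, summed to 452 to 500 in CD24lo cells, against 4467 to 4894, and their part was not tested.

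In thymic epithelium at 8 weeks 16 of 33 tested genes were higher in MEChi than in MEClo cells and 0 lower by limma (38.2% called, 18.8% higher). Pole had 190 and 199 in MEChi cells, against 44 and 55 in MEClo cells (1.98 ± 0.26, limma adjusted p 8.6e-05). Rrm2 had 422 and 424, against 103 and 118 (1.94 ± 0.27). The arrays did not overlap, as was so for 77% of probe sets. Uhrf1 was higher by 1.42 ± 0.21 and Tyms by 1.22 ± 0.14, and the smallest called changes were Cdc45 (0.55), which joins the helicase, and Pcna (0.51). All 12 mitosis genes were higher. Myeloid markers summed to 4917 to 4922 in MEChi cells, against 670 to 696 in MEClo cells, and neutrophil markers to 3065 to 3283 against 142. Their part in the result was not tested. Without the first MEClo array 10 were called.

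CEChi cells had 7 genes lower than MEChi cells and 0 higher by limma (47.9% called), led by Pole (84 and 80 in CEChi cells, -1.25 ± 0.26), Uhrf1 (-0.89 ± 0.21), Tyms (-0.62 ± 0.14) and Mcm6 (-0.59 ± 0.16), with E2f1 (-0.54) and Pola2 (-0.48) the least low. T cell markers summed to 3794 to 4327 in CEChi cells, against 644 to 670, and without the second MEChi array 4 were called. Sca1+ CEC cells had 2 genes lower than CEChi cells (13.2% called), Rrm2 (126 and 163, against 316 and 395, -1.31 ± 0.27) and Chaf1b (-0.52 ± 0.15). This count became 0 without the first Sca1+ or second CEChi array, 1 without the first CEChi array and 5 without the second Sca1+ array. MEClo cells of 8 and 5 weeks differed in 0 genes by limma (0.564% called, 9 at an unadjusted p under 0.05).

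Among MHCIIhi medullary cells 30 of 35 tested genes were higher in GFP+ than in GFP- cells and 0 lower by limma (49.4% called, 28.9% higher, median of all 39 genes 0.64). Uhrf1 had 439, 335 and 460 in GFP+ cells, against 124, 109 and 148 in GFP- cells (1.70 ± 0.17, limma adjusted p 1.9e-05). Rrm2 had 448, 430 and 443, against 158, 118 and 149 (1.65 ± 0.12). The groups did not overlap, as was so for 59.5% of probe sets. Pole was higher by 1.51 ± 0.17 and Mcm3 by 1.31 ± 0.17, and the smallest called changes were Cdt1 (0.45) and Chaf1b (0.34). The tested genes not called were Gins2 (0.17 ± 0.11), Gins3 (0.30 ± 0.15), Chaf1a (0.18 ± 0.11), E2f1 (0.25 ± 0.16) and Tk1 (-0.23 ± 0.10). All 12 mitosis genes and 27 of 37 other replication genes were higher, and 1 other replication gene was lower. Neutrophil markers summed to 2817 to 3514 in GFP+ cells, against 1288 to 1883, and their part in the result was not tested.

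GFP+ KO cells had 3 genes higher than GFP+ cells and 0 lower by limma (19.1% called). Rfc4 had 1126, 1223 and 850, against 612, 606 and 773 (0.68 ± 0.15), Pola1 was higher by 0.54 ± 0.13 and Gins3 by 0.49 ± 0.15. Neutrophil markers summed to 151 to 163 in KO cells, against 2817 to 3514, and without the second KO array 1 gene was called.

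In lymph node stroma on day 6 after CFA 0 of 32 tested genes were called by limma in FRC (0.0139% called, 3 at an unadjusted p under 0.05), 0 in DN cells (0.0831%, 8 at an unadjusted p under 0.05) and 0 in LEC (0.367%, 1 at an unadjusted p under 0.05). The largest change was that of Rrm2 in DN cells (0.77), and 1 gene was called there without the first untreated array. LEC had 1 array after CFA, assumed to vary like the other groups.

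Among peritoneal F4/80hi macrophages Gata6 had 3047, 2568 and 3120 on arrays labelled Gata6ko, against 2832, 3221 and 2553 on ctrl arrays (0.02 ± 0.13, limma adjusted p 0.93). The labels do not say which part of Gata6 is deleted or in which cells, and the place of the probes relative to it is unknown here, so this level does not check the labels. On arrays labelled Gata6ko 16 of 37 tested replication genes were higher and 0 lower by limma, where 6.69% of probe sets were called, 4.84% higher. The median change of all 39 was 0.55, against 0.04 over all probe sets, and 29 had an unadjusted p under 0.05.

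Rrm2 had 189, 327 and 178 on arrays labelled Gata6ko, against 86, 87 and 118 on ctrl arrays (1.21 ± 0.23, limma adjusted p 0.019). Pole2 had 315, 425 and 343, against 202, 163 and 143 (1.09 ± 0.16), and Pole had 150, 249 and 200, against 104, 83 and 93 (1.07 ± 0.18). No array overlapped between the groups for these genes, as was so for 29.3% of probe sets. The second Gata6ko array was the highest for all 3 genes. Prim1 was higher by 0.90 ± 0.20, and the smallest called changes were Cdc45 (0.55) and Lig1 (0.54).

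By role, 5 of 10 licensing genes were called, 3 of 4 in nucleotide supply and 0 of 4 of the clamp and its loader by limma. All 12 mitosis genes were higher (median 1.38), led by Bub1, a spindle checkpoint kinase (1.71), and Kif11, a spindle motor (1.69), and so were 13 of 37 tested other replication genes. The count of 16 became 8 without the second and 4 without the last Gata6ko array, and 4 without the second and 6 without the last ctrl array. Endothelium markers summed to 2480 to 2766 on arrays labelled Gata6ko, against 407 to 575, and their part in the result was not tested.

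Other macrophages and dendritic cells had fewer members called, although larger shares of all probe sets were called. In liver and in lung the share of members called lies under the background. In liver 3 genes were higher and 1 lower in F4/80hi than in intermediate macrophages (20.2% called), E2f1 (664, 443 and 540, against 366, 338 and 275, 0.74 ± 0.17), Pole2 (0.60 ± 0.12), Pola1 (0.58 ± 0.14) and Orc6 (-0.52 ± 0.13). Samples of equal number deviated alike in these groups, and with the number as a block 8 genes were called, 7 higher and 1 lower. The count was 2 without the last F4/80hi array and 1 without the last intermediate array. In lung 11 genes were higher and 2 lower in alveolar than in CD11c- CD11b+ macrophages (55.3% called), with Rrm2 at 0.84 ± 0.20, Chaf1b at 0.79 ± 0.14, Prim2 at 0.73 ± 0.10 and E2f1 at 0.69 ± 0.12. Gins3 (0.31) and Tk1 (-0.31) had the smallest called changes, and Lig1 (-0.40) was the other lower gene. Endothelium markers summed to 301 to 361 in alveolar cells, against 6835 to 8203, and dendritic markers in liver to 368 to 427 in F4/80hi cells, against 966 to 1513. Their part in these results was not tested.

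In visceral fat 8 of 37 tested genes were lower and 0 higher by limma in CD11b+ than in CD11b- dendritic cells. Of all probe sets 15.7% were called, with 1442 of 13977 lower. Pola1 had 193, 266 and 200 in CD11b+ cells, against 531 and 411 (-1.10 ± 0.30), and Rrm2 had 250, 404 and 311, against 685 and 600 (-1.02 ± 0.27). Pole (-0.94 ± 0.27) and Prim1 (-0.89 ± 0.20) followed, and Chaf1b (-0.59) and Rpa2 (-0.55) were the least low. Without either CD11b- array the count was 0, and it was 3 without the array numbered 2 and 2 without that numbered 4 of CD11b+ cells. Myeloid markers summed to 15580 to 22970 in CD11b+ cells, against 6840 to 7034, and mast cell markers to 148 to 161 against 2251 to 2494. Their part was not tested. Fat macrophages had 7 of 37 tested genes lower than CD11b+ dendritic cells and 0 higher by limma (15.6% called, 916 of 13977 probe sets lower). The lowest were Uhrf1 (-0.74 ± 0.20), Cdc6 (-0.70 ± 0.13), Mcm10 (-0.63 ± 0.14) and Prim1 (-0.62 ± 0.18), with Pold2 (-0.58) and Fen1 (-0.57) the least low. Without the macrophage array numbered 1 or 4 the count was 4 or 2, and without the dendritic array numbered 3 or 4 it was 3 or 4.

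**Figure D4:**
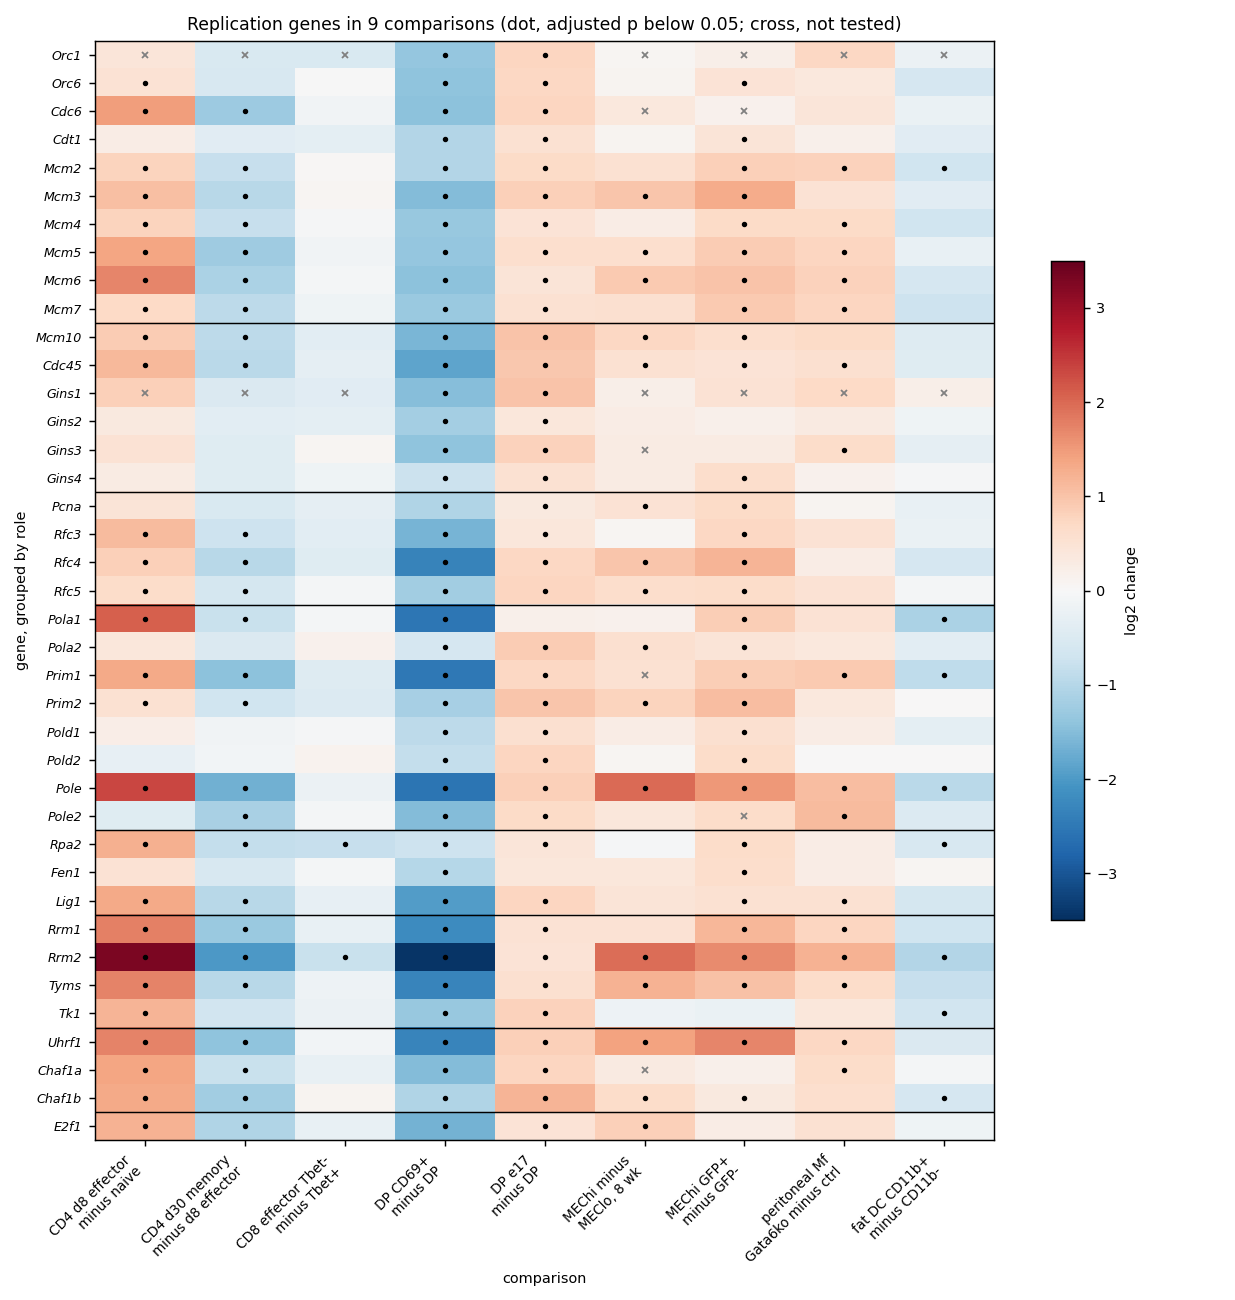
Log2 change (colour, red higher and blue lower in the group named first) of each of the 39 genes (rows, grouped by role) in 9 comparisons (columns), with dots for genes called at an adjusted p under 0.05 and crosses for genes not tested. DP cells with CD69 have all 39 genes lower and day 8 effector CD4 cells have 27 higher.

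A level per array was formed as the median over the 39 genes of the log2 intensity minus that gene's mean over the 65 groups, and is given as a description. It was highest in CD4 cells at 24 h (2.53, arrays 2.51 to 2.55) and CD8 cells at 24 h (2.32), followed by e17 DP cells (2.22) and the gamma delta cells CD24hi Vg4+ (2.12), CD24lo Vg4+ (2.07) and CD24hi Vg2+ (2.05). CD4 cells at 48 h (1.98), CD8 cells at 48 h (1.85) and CD69- DP cells of 6 weeks (1.47, arrays 1.38 to 1.59) came next. After these 9 groups there was a gap, with LCMV effector CD4 cells at 0.60 (arrays 0.44 to 0.77) and CD11b- dendritic cells of fat at 0.56.

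Among groups of 2 or more arrays, those at ranks 1, 2, 3, 7, 8, 9, 11, 53, 63 and 64 did not overlap the next group. The groups at ranks 52, 58 and 59 also lay apart from the next, but have 1 array each and no measured spread, as has the group after rank 53. The gamma delta groups overlapped each other. The lowest levels were those of blood neutrophils (-1.18), blood eosinophils (-0.96) and blood monocytes labelled 6+2- (-0.84), whose label also reads MHCII+. Under other settings the order of the groups had a Spearman's rho of 0.985 to 0.999 to the order given, but the level itself moved by more than the spread between arrays in 27 of 65 groups after quantile normalization, in 19 with the offset of 32 and in 1 with the lowest probe set.

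**Figure D5:**
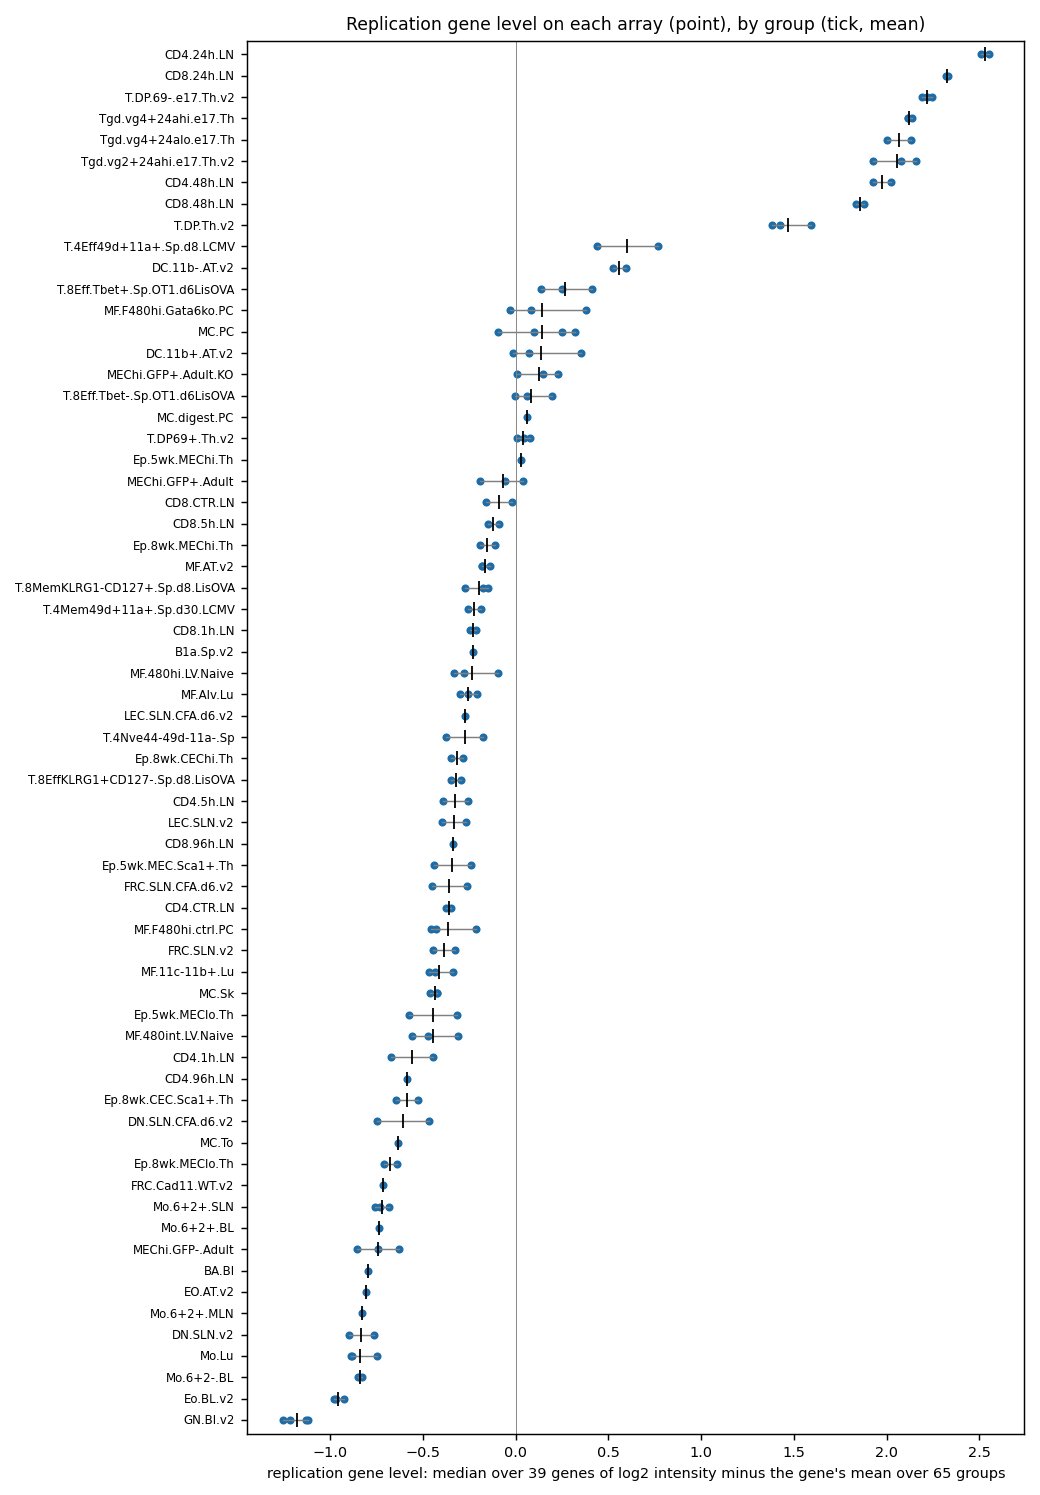
Replication gene level (horizontal axis, median over 39 genes of the log2 intensity minus the gene's mean over 65 groups) on each array (points), with ticks at group means, for all 65 groups from highest to lowest, named by their titles. The 9 groups above 1 lie apart from the other 56, the highest of which is at 0.60.

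Gene by gene, 33 of the 39 had every one of the 9 top groups above every other group. Those 9 groups were picked by the level of these same genes, so this count was partly fixed in advance and only describes them. The exceptions were Pold2, which 6 lower groups exceeded, among them CD4 and CD8 cells at 5 h, naive spleen CD4 cells and untreated FRC, and Rpa2, which the 3 effector groups labelled LCMV, Tbet+ and KLRG1+ exceeded. Chaf1b was exceeded by 2 groups (skin mast cells and LCMV effector cells), Cdt1 and Pole2 by CD8 cells at 1 h, and E2f1 by F4/80hi liver macrophages. Over the 65 group means each gene's correlation with the median of the other 38 ran from 0.748 for Pold2 to 0.98 for Mcm5. Among the 56 lower groups it ran from 0.264 for Tk1 to 0.915 for Mcm5, so Tk1, Gins2 (0.40), E2f1 (0.39) and Cdt1 (0.41) followed the others least there. These correlations describe groups that share a normalization and, for some, controls.

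Ranges over the groups also differed between genes. Rrm1 and Rrm2 each spanned 6.06 log2 units and Rfc4 spanned 5.82, whereas Gins2 spanned 1.93 and Gins4 spanned 2.33. The highest mean of a gene was in CD4 cells at 24 h for Mcm2 (2925 on average), Mcm5 (3284) and Mcm7 (2957), and in e17 DP cells for Rrm1 (4189), Rrm2 (4531) and Rfc4 (4171). The lowest mean was in blood neutrophils for many, such as Prim1 (30), Mcm6 (68) and Pcna (375).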

How the data were processed

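The authors deposited a table of RMA intensity values on a linear scale for 145 arrays and 24922 probe sets. Per the submitters' processing notes these came from Affymetrix Power Tools (version not given in the sources used here). From the deposited values the log2 was taken, with no further scaling. Groups came from sample titles. Probe sets with 1 symbol were named from the platform annotation (21425), and the one with the highest mean stood for a gene. Members and lists were chosen with earlier results of these data known, so no p-value was adjusted over a list alone.

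Related groups were fitted together with limma 3.58.1 in R 4.3.3 (12 fits, 119 arrays of 52 groups), with lmFit, eBayes and Benjamini-Hochberg adjustment over all tested probe sets. The filter was the 50th percentile of values, and the alternatives were the 75th, no filter, quantile normalization, an offset of 32, all arrays in one fit, a replicate block and leaving out each array. The 4 largest and 2 smallest called changes of a comparison were named, and the tested members not called where there were 5 or fewer. The procedure was tested on simulated data. The number of arrays limits precision.

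Among comparisons sharing 3 replicate numbers, same-numbered samples deviated together, with r over 0.1 for every pair, in CD24hi Vg2+ against e17 DP cells (0.116 to 0.15), GFP+ against GFP- cells (0.204 to 0.519) and F4/80hi against intermediate liver macrophages (0.129 to 0.475). The numbers come from the titles.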

Additional observations from a re-analysis of the deposited data

Results flagged for a closer look

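In 80 checks of single arrays in groups of 4, 4 values stood apart from the rest of their group. Chance gives about 1 in 20, which is also the share found here. The gap to the nearest other array, as a share of the group's range, was 0.916 for Cdt1 in blood neutrophils (7.04 on array 4, 7.28 to 7.30 on the others, log2). It was 0.876 for Gins2 there (7.40 on array 5, 7.96 to 8.03 on the others) and 0.899 for Rfc3 (6.55 on array 6, 6.19 to 6.23 on the others). It was 0.853 for Pold2 in mast cells of the peritoneal cavity (7.92 on array 5, 8.58 to 8.69 on the others). Array 5 carries blood as its source label, but so does array 6, which lies among the others. The neutrophil arrays came from mice of differing ages, and the part of age or source label was not tested.

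The response of Pole at 48 h differed between CD8 and CD4 cells by -1.195 on the log2 scale, tested with limma.

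In other cases every array of one group moved up against its control and every array of the other down, and the difference itself was not tested. Arrays did not overlap their controls for 52.8% of probe sets in CD4 and 56.1% in CD8 cells at 1 h. At 96 h the shares were 70.7% and 72.5%, so such separation is common here and not particular to these genes. Uhrf1 at 1 h changed by 0.16 in CD4 and -0.447 in CD8 cells, a difference of 0.607. At 96 h, with 1 array a lineage, the difference between CD4 and CD8 changes was -0.316 for Orc1, 0.456 for Orc6, 0.302 for Mcm7 and -0.264 for Mcm10. It was 0.206 for Gins3, 0.656 for Pola1, 0.471 for Uhrf1 and -0.354 for Chaf1b.

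After CFA, FRC and DN cells moved in opposite directions for Pold1 (difference -0.415) and Rrm1 (-0.749), and FRC and LEC for Cdc6 (0.349) and Pold2 (-0.577). DN cells and LEC did so for Cdc6 (0.321), Mcm2 (0.6), Mcm3 (0.615), Mcm6 (0.45), Rrm1 (0.659), Rrm2 (0.877), Chaf1a (0.603) and E2f1 (0.632). LEC had 1 array after CFA, and arrays did not overlap for 79.8% of probe sets there, 50.1% in FRC and 36.7% in DN cells.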

How the results depend on the processing

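Of 559 recomputed counts 469 stayed within 1.5 times the count reported. Of 2324 recomputed values of called members 2000 were still called in the same direction, 324 kept the direction but were not called or not tested, and 0 turned.

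With the stricter filter, which tests fewer genes, the counts were 17 for LCMV effector against naive cells, 17 for memory against effector cells, 6 for MEChi against MEClo, 2 for CEChi against MEChi and 1 for Sca1+ CEC against CEChi. They were 14 for GFP+ against GFP-, 1 for GFP+ KO against GFP+, 5 for Gata6ko against ctrl, 1 in liver, 4 in lung, 2 for fat macrophages against CD11b+ dendritic cells and 1 for the response difference at 24 h. With no filter the count was 5 for fat dendritic cells. With the offset of 32 it was 5 for CD4 cells at 1 h and 1 for the response difference at 24 h. With quantile normalization it was 0 for the response difference at 48 h, 2 for CD24lo against CD24hi Vg4+ cells, 5 for GFP+ KO and 1 for fat dendritic cells.

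With all arrays in one fit the counts were 4 for CD4 cells at 1 h, 1 for CD8 cells at 1 h, 4 for CD8 cells at 5 h, 0 for the response difference at 48 h, 1 for KLRG1+ cells, and 7 and 9 for Vg2+ and Vg4+ against e17 DP cells. They were 4 for Sca1+ CEC, 1 for MEClo at 8 against 5 weeks, 7 in liver, 20 for fat dendritic cells and 13 for fat macrophages. With the replicate number as a block the counts were 1 for the response difference at 24 h, 1 for Sca1+ CEC, 1 for MEClo by age, 8 in liver and 1 for fat macrophages. The block moved no other count by over 1.5 times. In the comparisons sharing 3 numbers that are named with the methods, samples of equal number deviated alike. The labels do not say whether they were paired. Comparisons sharing 2 numbers (r from -0.631 to 0.676) have too few arrays to tell whether equal numbers deviate alike, and samples there are taken to share only a number. The cause of these shifts was not tested.

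Leaving out 1 array gave 2 to 7 called genes for CD4 cells at 1 h, 1 to 1 for CD8 cells at 1 h, 5 to 8 for CD4 and 4 to 9 for CD8 cells at 5 h, 3 to 4 for both at 96 h, and 6 to 14 and 10 to 15 from 24 to 48 h. It gave 0 to 1 for the response differences at 24 and 48 h, 1 to 2 for resting cells, 22 to 30, 13 to 22 and 3 to 8 for LCMV effector, memory against effector and memory against naive cells, and 2 to 5 for Tbet-. It gave 0 to 2 for CD24lo Vg4+, 11 to 14 for Vg2+ and 11 to 17 for Vg4+ cells, 10 to 15 for MEChi, 4 to 5 for CEChi, 0 to 5 for Sca1+ CEC, 1 to 4 for GFP+ KO and 0 to 1 for DN cells after CFA. It gave 4 to 16 for Gata6ko, 1 to 6 in liver, 9 to 15 in lung, 0 to 12 for fat dendritic cells and 2 to 5 for fat macrophages.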
